A study of Mus musculus with 100 samples.

Results

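The loci described here are those of 10 genes of the NRF2 antioxidant system in mouse macrophages, measured by chromatin immunoprecipitation followed by sequencing (ChIP-seq). The genes were Nfe2l2, Keap1, Nqo1, Gclm, Gclc, Txnrd1, Slc7a11, Srxn1, Prdx1 and Sod2, and their members were all regions that the authors' annotation assigned to one of them as the gene with the nearest transcription start site (TSS). In 15 tables of tag counts, 837 of 610301 regions belonged to these genes, and all 10 genes had at least 1 region. Regions of different tables whose centres chained within 500 bp were joined to 130 sites, named below by gene and by distance from the TSS in kb, with negative distances upstream. Slc7a11 held 291 regions at 50 sites reaching 310.3 kb from its TSS, Nfe2l2 held 195 at 25 sites, Gclc 109 at 16 sites, Gclm 69 at 12 sites and Prdx1 57 at 9 sites. Fewer regions belonged to Txnrd1 (47 at 5 sites), Sod2 (28 at 4 sites), Keap1 (20 at 6 sites) and Srxn1 (17 at 2 sites), and Nqo1 had 4 regions at 1 site, its promoter.

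NRF2, the protein of Nfe2l2, is a transcription factor that pairs with small MAF proteins at antioxidant response elements (AREs). KEAP1 holds it in the cytoplasm and hands it to a ubiquitin ligase, and oxidants or electrophiles that modify KEAP1 let NRF2 accumulate. Its classical targets feed glutathione synthesis (Slc7a11, the cystine importer xCT, and Gclc and Gclm, the catalytic and modifier subunits of glutamate-cysteine ligase), the thioredoxin and peroxiredoxin cycle (Txnrd1, Prdx1 and Srxn1) and quinone reduction (Nqo1), whereas Sod2, the mitochondrial manganese superoxide dismutase, is known mainly as a target of NFκB. The study did not profile NRF2 itself, so the data show other regulators and a histone mark at these loci, and no transcript levels.

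The cells were bone marrow-derived macrophages (BMDMs) from C57BL/6 mice, kept as bulk cultures, with 2 libraries in every group. Wild type cells received vehicle (Veh) or Kdo2 lipid A (KLA, an agonist of Toll-like receptor 4) for 6 hours, and were profiled for the corepressor NCoR, the histone deacetylase HDAC3, p65 (an NFκB subunit), Fosl2 (an AP-1 factor), the lineage factor PU.1, the coactivator PGC1β, the kinase ERK1 and the acetyltransferase p300 (its Veh libraries carry the label KLA0h). Further wild type groups were PGC1β after DMSO Veh, DMSO KLA or ERKi KLA, NCoR after ERKi KLA, and H3K27ac after DMSO Veh, DMSO KLA or RGFP966 KLA, where ERKi is the ERK inhibitor LY3214996, RGFP966 an HDAC3 inhibitor and DMSO their solvent. H3K27ac, the acetylated form of lysine 27 on histone H3 that active promoters and enhancers carry, was also profiled after Veh or KLA in cells labelled WT and NKO, and in Pgc1b flox and Pgc1b flox Cre cells. The WT of that experiment carried NCoR flox/flox alleles without Cre and NKO the same alleles with LysMCre, and flox was PGC1b flox/flox with flox Cre adding LysMCre, a Cre driven from a myeloid locus, so both members of each pair share the floxed alleles. ERK1 and p300 were profiled in bone marrow cells titled WT at Day0 and Day4 of osteoclast differentiation with RANKL. The column names of both ERK1 Day0 libraries and of ERK1 Day4 replicate 1 also hold NCoRWT, and that of ERK1 Day4 replicate 2 does not. The labels do not say that the 2 libraries of a group came from separate animals, so the p-values measure only the spread between these samples.

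Libraries held 4.30 to 21.5 M tags (median 13.7 M), and levels are given as tags per 10 M of the library total. A region is said to have risen or fallen, or to be called, when edgeR's quasi-likelihood test gave a Benjamini-Hochberg adjusted p under 0.05 over the whole table and the change was over 2-fold; ± after a log2 fold change is its standard error (SE). The share of tags that fell in regions differed between groups, from 34.1 to 37.1% after KLA against 12.7 to 14.4% after Veh for p65, and from 41.5 to 41.7% against 51.6 to 52.8% for PU.1. Scaling by the trimmed mean of M values (TMM) therefore shifted the median log2 fold change of all regions, by -1.22 for p65, -0.52 for p300, -0.28 for HDAC3 and 0.42 for PU.1 but by only -0.01 for NCoR and 0.00 for Fosl2. Under TMM the share of higher calls among all calls went from 91.3 to 56.5% for p65, from 76.6 to 57.8% for p300, from 71.0 to 59.9% for HDAC3, from 80.3 to 67.4% for ERK1 and from 17.2 to 46.3% for PU.1. A call said below to have held in every setting was made with library totals, with TMM, with DESeq2, with a replicate block, without the filter on low counts and with each library left out in turn. In the H3K27ac tables with 1000 bp windows, 6 of 6 macrophage genes (Csf1r, Adgre1, Cd68, Spi1, Itgam and Mertk) had a promoter region, no osteoclast, T cell, B cell, fibroblast or epithelial marker had one, and of the neutrophil markers only S100a8 did. In the H3K27ac table of WT and NKO, 4 of 6 macrophage genes had one, as did the osteoclast gene Ocstamp. In the p300 table of Veh and KLA all 6 macrophage genes had one. So did 4 of 6 osteoclast genes (Ctsk, Mmp9, Ocstamp and Dcstamp), the B cell gene Ms4a1 and S100a8. In bulk chromatin, fewer cells that carry a mark and less of it per cell cannot be told apart.

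The sequences behind the sites discussed most are shown first, as mm10 plus strand, read from RefSeq's GRCm38.p6 genome, 5′ to 3′. The first pair shows the centres of sites with gains of 8 and 7 factors after KLA, and neither holds one of the motifs searched.

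Sod2 +2.3 kb, intron 2, chr17:13010065-13010264: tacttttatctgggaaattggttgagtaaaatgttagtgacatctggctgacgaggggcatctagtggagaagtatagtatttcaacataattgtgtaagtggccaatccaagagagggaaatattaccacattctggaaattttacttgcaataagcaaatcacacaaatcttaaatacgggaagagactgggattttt

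Nfe2l2 -16.2 kb, intergenic, chr2:75720759-75720958: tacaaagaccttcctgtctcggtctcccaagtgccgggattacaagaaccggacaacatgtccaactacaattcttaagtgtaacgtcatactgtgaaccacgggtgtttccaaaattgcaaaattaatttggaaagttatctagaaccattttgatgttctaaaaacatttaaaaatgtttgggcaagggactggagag

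The next pair shows a distal and an intronic Slc7a11 site with gains of 6 and 7 factors, with the NFκB consensus GGGAAACCCC and an ARE core in capitals.

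Slc7a11 -174.8 kb, intergenic, chr3:50618342-50618541: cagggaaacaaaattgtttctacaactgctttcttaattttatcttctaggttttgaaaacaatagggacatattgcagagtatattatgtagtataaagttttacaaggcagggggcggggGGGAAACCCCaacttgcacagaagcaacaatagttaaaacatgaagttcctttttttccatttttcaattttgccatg

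Slc7a11 +41 kb, intron 6, chr3:50402474-50402673: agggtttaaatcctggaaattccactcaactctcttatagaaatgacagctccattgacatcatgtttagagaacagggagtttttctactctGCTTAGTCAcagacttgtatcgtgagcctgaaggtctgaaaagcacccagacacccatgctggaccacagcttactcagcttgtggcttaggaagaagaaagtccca

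The last 3 are sites in which the ARE core TGACNNNGC (written here as its reverse complement GCTGAGTCA) overlapped the AP-1 motif TGANTCA, with these motifs in capitals.

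Gclm -36.6 kb, intergenic, chr3:122208864-122209063: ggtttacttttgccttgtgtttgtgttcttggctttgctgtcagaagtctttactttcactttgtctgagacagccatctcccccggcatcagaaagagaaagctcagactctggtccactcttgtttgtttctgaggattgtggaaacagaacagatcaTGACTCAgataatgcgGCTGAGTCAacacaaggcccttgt

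Gclc -3.8 kb, intergenic, chr9:77750653-77750852: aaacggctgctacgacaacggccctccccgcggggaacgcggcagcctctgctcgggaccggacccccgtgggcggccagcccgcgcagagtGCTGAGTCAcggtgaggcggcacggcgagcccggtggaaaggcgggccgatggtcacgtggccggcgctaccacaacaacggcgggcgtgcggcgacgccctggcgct

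Prdx1 -0.1 kb, promoter up to the TSS, chr4:116685440-116685543: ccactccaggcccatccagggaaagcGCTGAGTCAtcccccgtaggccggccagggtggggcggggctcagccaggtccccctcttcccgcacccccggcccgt

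Windows of 200 bp around the site centres were searched on both strands. The ARE core TGACNNNGC was found in 20 of 130 sites (15.4%), AP-1 (TGANTCA) in 22 (16.9%), the PU.1 core GAGGAAGT in 11 (8.46%) and the NFκB consensus in 6 (4.62%). In 4 sites the ARE core overlapped an AP-1 motif. Beside all regions of the same table, 15.5% of the p300 member regions held the ARE core against 11.7% of all p300 regions, and 8.86% of the p65 member regions held the NFκB consensus against 7.61%. Other shares ran the other way, with AP-1 in 18.4% of the p300 and 17.7% of the p65 member regions against 23.1 and 21.7% of all, the NFκB consensus in 2.91% of the p300 member regions against 5.36% and the ARE core in 5.08% of the PU.1 member regions against 9.84%. These differences were not tested. Of the 10 genes, 9 had a RefSeq promoter (250 bases before to 50 after the start). The ARE core was present in the promoters of Gclm, Nfe2l2, Prdx1, Srxn1 and Txnrd1 (12.4% of all 32851 promoters held it) and the NFκB consensus in those of Prdx1 and Sod2 (4.51% of all). These matches describe letters only.

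The first question was how the 6 hour KLA response moved each factor at the antioxidant loci. Scaled by library totals, gains outnumbered losses for p65 and p300. p65 rose in 56 of 79 tested member regions and fell in 2, against 57.0% higher and 5.43% lower among all p65 regions. The median log2 fold change was 1.91 for the members and 1.46 for all regions. p300 rose in 54 of 103 and fell in 9, beside 42.1% and 12.9% of all p300 regions (medians 1.16 and 0.65). Slc7a11 alone held 30 of the 56 p65 gains, in 38 of the 79 regions, and 30 of the 54 p300 gains, in 42 of the 103. Under TMM the members split into 31 higher and 13 lower for p65 and 44 higher and 14 lower for p300. Without KLA replicate 1 or 2, 37 or 29 of the p65 regions were called in place of 58 in both directions, while p300 kept between 53 and 65 calls whichever library was left out.

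The corepressor pair moved in both directions. NCoR rose in 10 and fell in 9 of 70 regions (23.4% higher and 16.7% lower among all), and HDAC3 rose in 12 and fell in 7 of 62 (27.5% and 11.3% among all), and under TMM rose in 10 and fell in 11. HDAC3 KLA replicate 2 stood apart, with 5.69 M tags and 46.5% of them in regions against 17.1 M and 31.2% in replicate 1, and the HDAC3 levels of the 2 KLA libraries often differ below. NCoR had 12 calls without KLA replicate 2 in place of 19, and HDAC3 5 or 7 without Veh replicate 1 or 2 in place of 19. The other factors moved at fewer member regions. Fosl2 rose in 7 and fell in 1 of 49 (11.4% and 4.19% among all), and PGC1β rose in 10 and fell in 1 of 51 (16.4% and 6.35% among all). The Fosl2 calls rested on both Veh libraries, with none made without either and 19 or 15 made without KLA replicate 1 or 2. The Fosl2 KLA libraries held 16.4 and 32.3% of their tags in regions. PGC1β had 6 or 7 calls without Veh replicate 1 or 2. For ERK1, 5 of 41 rose and none fell, neither in edgeR at an unadjusted p under 0.05 nor in DESeq2 or under TMM (10.3% and 2.53% among all), and 2 calls remained in number without either KLA library. PU.1 was higher in 3 and lower in 11 of 59 (4.53% and 21.7% among all), and under TMM in 5 each.

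**Figure D1:**
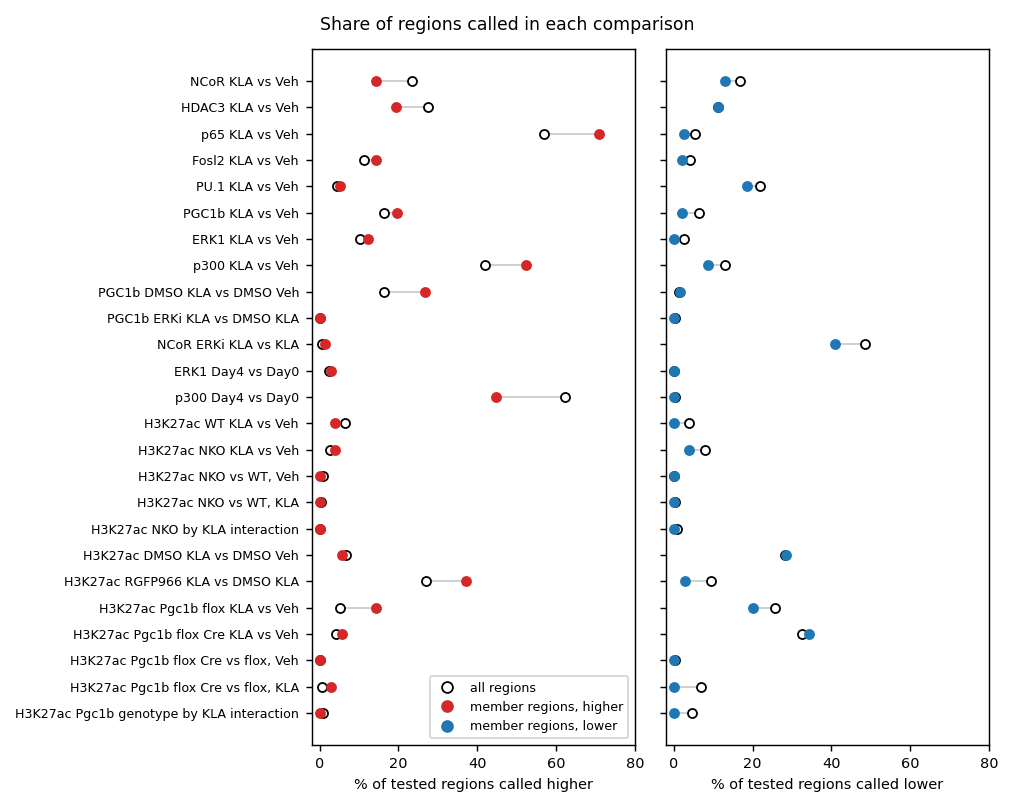
Percent of tested regions called higher (left) or lower (right) in each of the 25 comparisons, for the member regions (filled) and for all regions of the same table (open). Members sat above all regions for p65 gains (70.9 against 57.0%) and p300 gains (52.4 against 42.1%), and below them for NCoR gains (14.3 against 23.4%). Slc7a11 alone held 30 of the 56 p65 gains and 30 of the 54 p300 gains of the members.

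Of the 130 sites, 126 held a region of at least 1 of the 8 factors and 22 held a region of all 8. At 11 sites 4 or more factors rose and at 4 sites 4 or more fell, and 2 sites held gains and losses of different factors. Sites were not joined for other genes, so no share over all sites can stand beside these counts. Among all regions, 57.0% of those of p65 and 42.1% of those of p300 were called higher. The sites with gains of most factors lay in Sod2 intron 2 (8 factors), at Nfe2l2 -16.2 kb and in Slc7a11 intron 6 at +41 kb (7 factors each), at Slc7a11 -174.8 kb (6) and at Gclm -7.6 kb (5). With gains of 4 factors each, the others were Gclc +71.2 kb, Gclm -9.6 kb, Keap1 +3.8 kb and Slc7a11 +5.3, +46.7 and +53.1 kb. Of these gains, HDAC3 and p300 at Gclm -9.6 kb, p65 and p300 at Gclm -7.6 kb and ERK1 at Slc7a11 +5.3 kb were called neither under TMM nor with DESeq2. The sites with losses of 4 factors were Gclc +66.5 kb, Gclm +5.6 kb and Slc7a11 -289.9 and -285.4 kb. Neighbouring sites thus differed, since Gclc +66.5 kb and +71.2 kb lie under 5 kb apart. Joining centres at 100 or 1000 bp in place of 500 bp gave 154 or 111 sites.

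**Figure D2:**
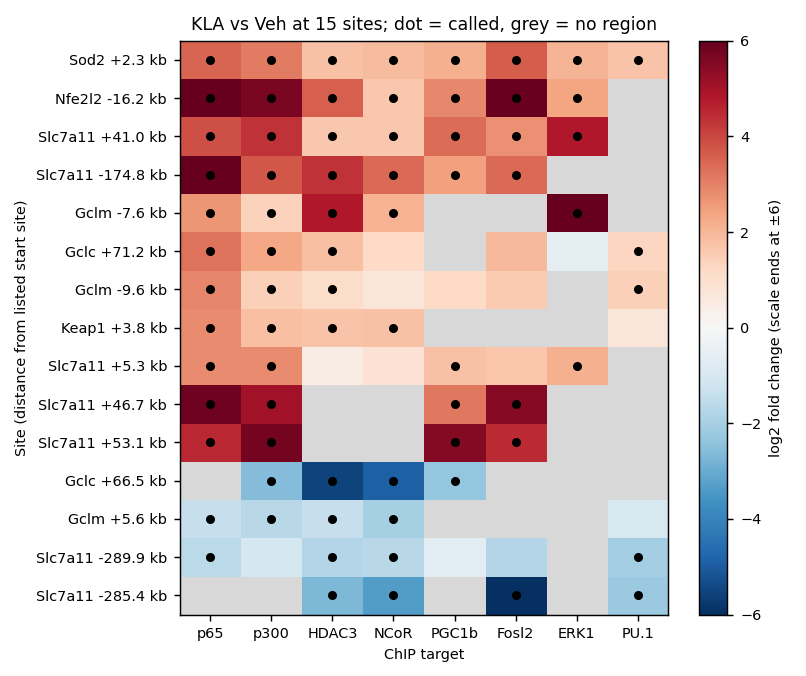
Log2 fold change (KLA over Veh) of 8 factors at 15 sites of the antioxidant genes, with dots on called changes, grey where a factor had no region and a colour scale that ends at -6 and 6. At Sod2 +2.3 kb all 8 factors rose and at Gclc +66.5 kb the 4 factors with a region fell.

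Nfe2l2 (chr2:75675513-75704641, minus strand) is the regulator itself, and its changes lay mainly upstream. The -16.2 kb site (chr2:75720586-75721010) is intergenic, 61.5 kb from the next gene's TSS, Hnrnpa3. p65 there was 266 and 303 in the KLA libraries and 0.876 and 7.46 in the Veh libraries (log2 fold change 6.09, SE 0.43, adjusted p = 1.6e-06). p300 went the same way, with 248 and 205 against 5.01 and 3.94 (5.63 ± 0.28, adjusted p = 2.4e-10). Both KLA libraries stood far above both Veh libraries for each. HDAC3 was 75 and 75.5 against 5.09 and 7.19 (3.58 ± 0.51, adjusted p = 1e-10) and PGC1β 54.6 and 46.9 against 7.05 and 6.51 (2.89 ± 0.44, adjusted p = 0.00014). These 4 gains held in every setting. Fosl2 was 97.8 and 136 against 0 and 3.15, 158 tags in all against 3 (68.1-fold, 95% counting interval 22.9 to 334). The gains of NCoR (70.5 and 62.9 against 14.3 and 28.2, 1.64 ± 0.40, adjusted p = 0.0068) and ERK1 (71.3 and 69.4 against 17.3 and 10.4, 2.36 ± 0.51, adjusted p = 0.016) were not called without either KLA library. Their log2 fold changes were 1.23 to 2.21 and 2.01 to 2.74 over all settings. The gain of Fosl2 was not called without either Veh library (5.14 to 9.28). No PU.1 or H3K27ac region lay at this site.

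Further upstream a row of intergenic Nfe2l2 sites gained p65 from a visible Veh level. At -26.6 kb p65 was 370.0 and 437 against 57.8 and 46.6 (2.95 ± 0.22, adjusted p = 2.3e-06), at -28.7 kb 292 and 347 against 49 and 77.4 (2.34 ± 0.25) and at -29.7 kb 319.9 and 328 against 49.9 and 88.6 (2.23 ± 0.26). At -29.7 kb p300 was also higher (224 and 221 against 56.4 and 43.4), as was PGC1β (67.7 and 46.3 against 13.5 and 14.9), and all of these held in every setting. Over the locus p65 rose in 11 of 13 regions and fell in none, beside 57.0% higher and 5.43% lower among all p65 regions. Of the 11 gains, 5 were also called under TMM, 4 held in every setting and 3 turned direction under TMM.

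p300 had 4 gains and 5 losses in 22 regions of Nfe2l2, beside 42.1% higher and 12.9% lower among all p300 regions. Of these calls, 2 gains and 1 loss held in every setting. The losses lay between -1.9 and +17.0 kb, and of the gains those at -57.3, -29.7 and -16.2 kb lay upstream and that at +15.6 kb in the gene. The gains at -57.3 and +15.6 kb were called neither under TMM nor with DESeq2. At -1.9 kb p300 was 10.7 and 10.8 against 38.2 and 27.6 (-1.61 ± 0.42, adjusted p = 0.0034, held in every setting). At +8.1 kb in intron 1 p300 was 26.1 and 25.4 against 60.2 and 50.6 (-1.1 ± 0.30), not called without Veh replicate 1 (-1.62 to -0.97 over all settings). PU.1 there was 103 and 89.2 against 199.6 and 204 (-1.07 ± 0.11), not called under TMM or DESeq2. At the Nfe2l2 TSS (+0.1 kb) nothing was called: p300 was 53.2 and 58.9 against 67.7 and 95.3 and PU.1 112 and 87.3 against 122 and 128, and NCoR, at 64.8 and 51.2 against 86 and 122 (-0.85 ± 0.29, adjusted p = 0.032), stayed under the 2-fold limit.

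Keap1 (chr9:21229730-21239361, minus strand), the adaptor that restrains NRF2, had 1 responsive intronic site. At +3.8 kb in intron 2 (chr9:21235365-21236063) p65 was 155 and 197 against 12.3 and 37.3 (2.84 ± 0.39, adjusted p = 0.00011) and p300 79.8 and 71.3 against 29.5 and 13.8 (1.8 ± 0.32). NCoR was 116 and 98.2 against 23.9 and 38.8 (1.76 ± 0.32), and these 3 gains held in every setting. HDAC3 was 90.8 and 158 against 36.4 and 37.6 (1.72 ± 0.39), not called without either Veh library (1.29 to 2.09). In all 4 cases both KLA libraries lay above both Veh libraries. At +14.0 kb p300 was 38.4 and 29.2 against 4.39 and 3.94, a gain that held in every setting. PU.1 fell in 2 of 6 Keap1 regions, beside 21.7% of all PU.1 regions. Both lay at +18.4 kb (-1.05 ± 0.17 and -1.02 ± 0.24) and were called neither under TMM nor with DESeq2. In exon 1, the 5′ UTR, nothing was called, with Fosl2 at 14 and 31.6 against 50.8 and 31.5 (+0.5 kb) and PU.1 at 72.6 and 78.4 against 59.5 and 65.4 (+1.6 kb).

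Slc7a11 (chr3:49892526-50443614, minus strand), the light chain of the cystine-glutamate antiporter, had the most regions and the most calls. p65 was higher in 30 of 38 regions and p300 in 30 of 42, beside 57.0% of all p65 and 42.1% of all p300 regions. Of these gains, 18 and 27 were also called under TMM and 9 and 25 held in every setting, and 2 of the p65 gains turned direction under TMM. Its promoter gained both factors, from almost no signal at -0.7 kb and from a low level at -0.1 kb. At -0.7 kb p65 was 60.1 and 85.5 against 0.876 and 0, 215 tags in all against 1 (161-fold, 95% counting interval 28.6 to 6386), and p300 was 251 and 251 against 2.51 and 3.94 (6.26 ± 0.28, adjusted p = 1e-10). At -0.1 kb p65 was 124 and 118 against 10.5 and 25.2 (2.77 ± 0.38) and p300 259 and 255 against 32 and 20.4 (3.29 ± 0.21). All 4 promoter gains held in every setting, and in each the KLA libraries lay far above the Veh libraries. PGC1β at -0.1 kb was 54.6 and 22.9 against 7.64 and 9.76 (2.09 ± 0.50, adjusted p = 0.0052), not called without Veh replicate 1 (1.38 to 2.63). NCoR at -0.1 kb was 82.6 and 81.6 against 40.6 and 43.5 (0.96 ± 0.29, adjusted p = 0.02), under the 2-fold limit, and no H3K27ac region lay within 2 kb of this TSS.

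Inside Slc7a11, the +41 kb site in intron 6 (chr3:50402402-50403174), whose ARE core is shown above, gained 7 factors. p65 was 397 and 365 against 15.8 and 36.4 (3.88 ± 0.31, adjusted p = 2.9e-06) and p300 195 and 234 against 15.7 and 5.26 (4.33 ± 0.30). NCoR was 111 and 111 against 29.9 and 43.5 (1.59 ± 0.29) and PGC1β 39.3 and 33.2 against 5.29 and 1.86 (3.36 ± 0.56). ERK1 was 60.2 and 58.5 against 0 and 3.47 (29.7-fold, 95% counting interval 9.86 to 147), and these 5 gains held in every setting. HDAC3 (104 and 200.2 against 56 and 41.5) and Fosl2 (169.9 and 427 against 46.6 and 44) also rose, and without either of their Veh libraries were not called. The Fosl2 gain was also lost with the replicate block. Log2 fold changes over all settings were 1.11 to 2.05 for HDAC3 and 1.90 to 3.23 for Fosl2. In each of these 7 factors both KLA libraries lay above both Veh libraries, although the KLA libraries of HDAC3 and Fosl2 were far apart. The neighbouring intron 6 sites at +46.7 and +53.1 kb were near 0 in the Veh libraries, where p300 was 5.01 and 0.657 and 0.627 and 1.97 against 92.1 and 103 and 84.4 and 60.0 after KLA.

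The Slc7a11 -174.8 kb site (chr3:50618305-50618620), with the NFκB consensus shown above, lies 606 kb from the next gene's TSS, Noct. p65 was 189 and 171 against 2.63 and 2.8 (6.0 ± 0.39, adjusted p = 1e-06) and HDAC3 97.3 and 125 against 6.55 and 4.42 (4.33 ± 0.50). NCoR was 72.1 and 92 against 4.78 and 10.6 (3.4 ± 0.45) and p300 171 and 171 against 3.76 and 22.3 (3.72 ± 0.37), and these 4 gains held in every setting. The KLA and Veh libraries did not overlap for any of them. Fosl2 (37.2 and 122 against 9.87 and 5.24) and PGC1β (18.6 and 19.4 against 3.53 and 3.25) rose as well, and were not called without either of their Veh libraries (2.32 to 4.02 and 2.37 to 2.52 over all settings). The Fosl2 gain was also lost with the replicate block.

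Losses of 4 factors each lay at the -289.9 and -285.4 kb sites of Slc7a11. PU.1 also fell beside them at -293.8 kb (-2.57 ± 0.31), in every setting. Its loss at -292.1 kb (-1.1 ± 0.21) was called neither under TMM nor with DESeq2. At -251.1 kb NCoR (-1.12 ± 0.31) and PU.1 (-1.22 ± 0.12) fell, neither in every setting. Single gains lay at -310.3 kb, where p65 was 37.4 and 30.1 against 4.38 and 2.8 (3.19 ± 0.60), not called without KLA replicate 1, and at -275.7 kb, where p300 was 40.9 and 37.8 against 6.27 and 18.4 (1.68 ± 0.45), not called with DESeq2 or without KLA replicate 1. NCoR and HDAC3 also fell at -184.9 kb, by log2 fold changes of -1.54 and -1.98. Neither call held in every setting (-1.76 to -1.33 and -2.31 to -1.56). At -289.9 kb (chr3:50733310-50733759) PU.1 was 23.6 and 21.7 against 93.6 and 97.1 (-2.07 ± 0.20, adjusted p = 3.9e-18) and NCoR 59.9 and 49.1 against 155 and 186 (-1.65 ± 0.24), both held in every setting. HDAC3 was 29.9 and 73.8 against 157 and 167 (-1.75 ± 0.38), not called without either Veh library (-2.44 to -1.14). p65 was 20.7 and 6.84 against 44.7 and 40.1 here (-1.61 ± 0.53), not called without KLA replicate 2 (-2.82 to -1.03). At -285.4 kb HDAC3 was 11.1 and 10.5 against 74.2 and 69.1 (-2.7 ± 0.49) and PU.1 9.16 and 8.92 against 37.8 and 49.2 (-2.24 ± 0.27), both held in every setting. Fosl2 had no tag there in either KLA library against 43.7 and 24.1 after Veh, at least 13.9-fold lower with the floor of 3 tags over the group, and was not called with the replicate block or without either Veh library.

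**Figure D3:**
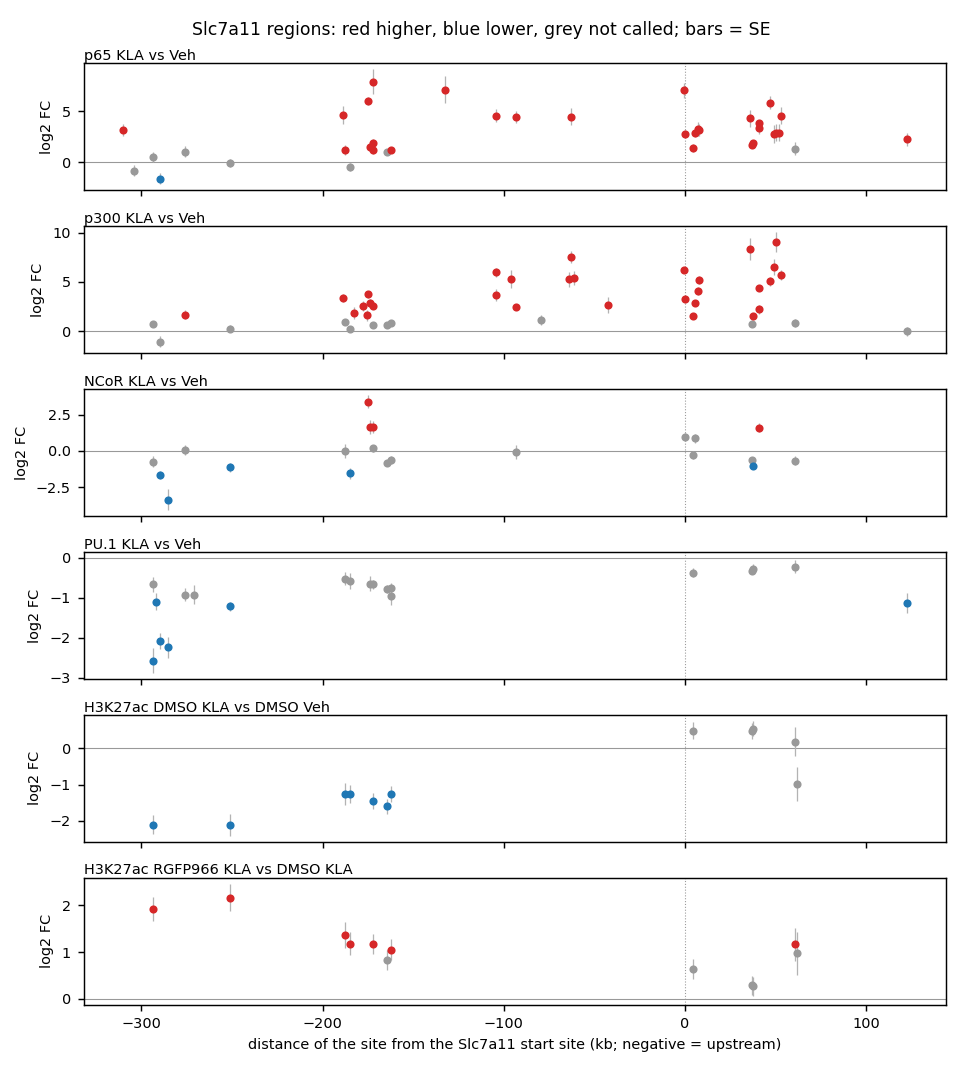
Log2 fold change ± SE (y axis) of each Slc7a11 region against its distance in kb from the Slc7a11 TSS (x axis), for p65, p300, NCoR and PU.1 (KLA over Veh) and for H3K27ac (DMSO KLA over DMSO Veh, and RGFP966 KLA over DMSO KLA), with red for higher, blue for lower and grey for regions not called. p300 had 30 gains and no loss in 42 regions, beside 42.1% higher and 12.9% lower among all p300 regions. PU.1 had 6 losses and no gain in 20 (21.7% lower and 4.53% higher among all). NCoR had 4 gains and 5 losses in 21 (23.4% higher and 16.7% lower among all).

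Gclc (chr9:77754535-77794485, plus strand), the catalytic subunit of glutamate-cysteine ligase, carried losses of the corepressor pair. At +66.5 kb (chr9:77820850-77821128, intergenic) HDAC3 was 2.34 and 0 against 83.7 and 84.6 (-5.55 ± 0.64, adjusted p = 4.4e-16) and NCoR 3.24 and 0.692 against 41.8 and 76.5 (-4.89 ± 0.67, adjusted p = 0.00036). p300 was 1.02 and 8.11 against 34.5 and 21.7 (-2.62 ± 0.63). Both KLA libraries were near 0 for the corepressors, and these 3 losses held in every setting. PGC1β was 2.18 and 2.86 against 13.5 and 13.5 (-2.34 ± 0.72), not called with the replicate block or without either Veh library (-2.58 to -2.21). NCoR also fell at -17 kb (19.4 and 12.5 against 84.8 and 78.9, -2.36 ± 0.37) and at -22.3 kb (6.48 and 2.08 against 39.4 and 37.7, -3.18 ± 0.59), and PU.1 at -22.3 kb (53.6 and 52.9 against 152 and 136, -1.44 ± 0.14), in every setting.

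The Gclc +71.2 kb site (chr9:77824949-77826026) went the other way. p65 was 83.5 and 91.7 against 7 and 11.2 (3.26 ± 0.40, adjusted p = 5.3e-05), p300 102 and 128 against 25.7 and 19.7 (2.34 ± 0.26) and PU.1 70.0 and 64.4 against 28.4 and 26.8 (1.28 ± 0.21), and these gains held in every setting. Each of these factors had a neighbouring region at the site that was not called, with log2 fold changes of 0.35 for p65, 0.73 for p300 and -0.13 for PU.1. HDAC3 was 65.6 and 87.8 against 20.4 and 22.1 (1.83 ± 0.44), not called without either Veh library (1.56 to 2.04). At the Gclc promoter p300 was lower, 17.4 and 13 against 33.2 and 36.8 at the TSS (-1.2 ± 0.39, adjusted p = 0.012), not called without KLA replicate 2 (-1.72 to -1.01). At +1.8 kb p300 was 4.6 and 5.4 against 19.4 and 25.6 (-2.15 ± 0.51, adjusted p = 0.0017), which held in every setting. p65 at the promoter, 11.4 and 14.4 against 18.4 and 23.3, and PU.1, 18.3 and 25.5 against 38.3 and 32.4, were not called.

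Gclm (chr3:122245557-122270732, plus strand) encodes the modifier subunit of the same enzyme. Its promoter, which holds an ARE core, carried high NCoR and HDAC3 levels and was not called after KLA: NCoR was 271 and 254 against 335 and 371 (-0.43 ± 0.17), HDAC3 192 and 383 against 412 and 337 and p65 61.4 and 86.9 against 72.7 and 78.3. The HDAC3 libraries overlapped between the groups. Upstream the corepressors rose. At -7.6 kb (chr3:122237804-122238102) HDAC3 was 55.1 and 116 against 4.36 and 1.66 (4.81 ± 0.57, adjusted p = 3.1e-15) and NCoR 78.6 and 82.3 against 25.1 and 12.9 (2.08 ± 0.38, adjusted p = 0.0017), both in every setting. ERK1 was 20.9 and 25.9 there with no tag in either Veh library, at least 11.6-fold higher, a call that was lost with the replicate block or without either KLA library. p65 (11.4 and 23.9 against 5.25 and 0) and p300 (22.5 and 23.2 against 8.78 and 8.54) were called with library totals and neither under TMM nor with DESeq2.

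At Gclm -9.6 kb p65 was 137 and 157 against 20.1 and 17.7 (2.95 ± 0.30) and PU.1 147 and 122 against 51.2 and 47.3 (1.44 ± 0.15, adjusted p = 2.3e-16), both in every setting. HDAC3 (125 and 244 against 90.9 and 78.5) and p300 (122 and 119 against 53.9 and 36.1) were called there with library totals and neither under TMM nor with DESeq2. The -36.6 kb site with its ARE core and AP-1 motifs, shown above, gained NCoR, 130.4 and 134 against 14.3 and 41.2 (2.24 ± 0.38), in every setting. HDAC3 was 80.3 and 96.6 against 41.5 and 32.1 (1.26 ± 0.40), not called without either Veh library (1.02 to 1.45). In intron 1 at +5.6 kb NCoR was 13.8 and 6.92 against 38.2 and 44.7, HDAC3 15.2 and 21.1 against 46.6 and 44.2, p65 7.35 and 7.53 against 21.9 and 16.8 and p300 6.14 and 8.11 against 28.2 and 16.4. All 4 were called lower, and none of these calls held without every single library. NCoR was not called without KLA replicate 2, HDAC3 without either Veh library and p300 without either KLA library. p65 was not called without Veh replicate 1, without either KLA library or with the replicate block. Log2 fold changes over all settings were -2.56 to -1.58 for NCoR, -1.60 to -1.10 for HDAC3, -2.15 to -1.20 for p300 and -2.59 to -1.16 for p65.

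**Figure D4:**
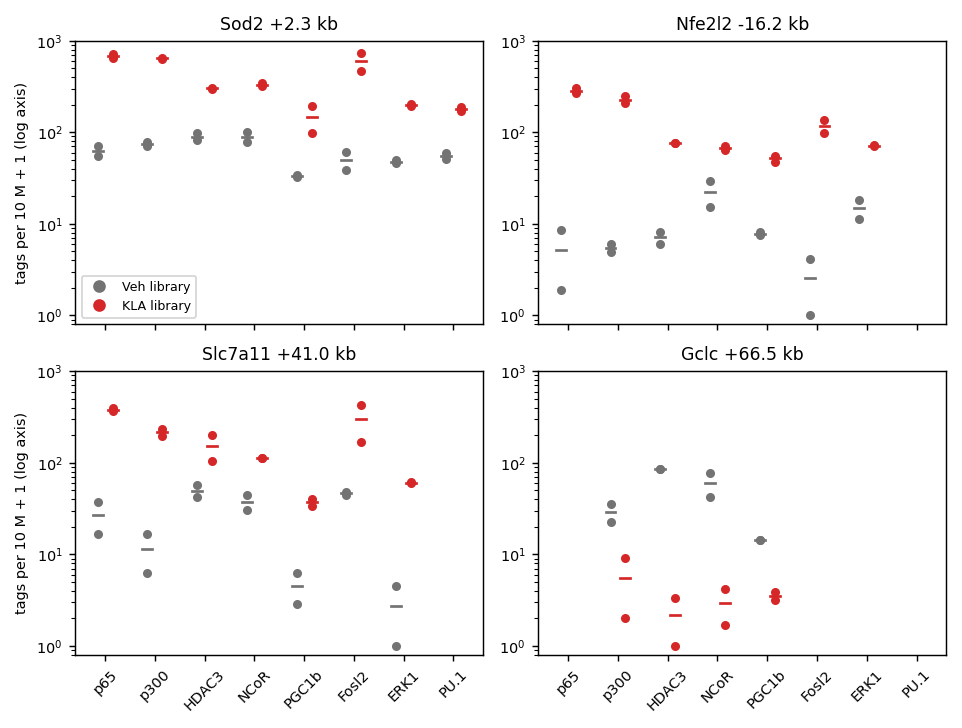
Tags per 10 M of library total plus 1 (log axis) in each library of 8 factors after Veh (grey) or KLA (red) at Sod2 +2.3, Nfe2l2 -16.2, Slc7a11 +41 and Gclc +66.5 kb, with lines at the group means and empty columns where a factor had no region. The KLA libraries lie above the Veh libraries for all factors shown at the first 3 sites and below them at the last.

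Txnrd1 (chr10:82833951-82897712, plus strand), the cytosolic thioredoxin reductase, gained p65 at its promoters. p300 was called higher there with library totals, but neither under TMM nor with DESeq2. At +0.4 kb, in intron 2 near the NM_015762 start, p65 was 202 and 190.2 against 28 and 41 (2.51 ± 0.27, adjusted p = 2e-05), in every setting. At -0.3 kb p65 was 136 and 159 against 25.4 and 39.2 (2.19 ± 0.30) and not called under TMM. The p300 gain at -0.3 kb (1.36 ± 0.29) was not called under TMM, with DESeq2 or without Veh replicate 2. p300 at +0.4 kb was 144 and 133 against 58.9 and 68.3 (1.13 ± 0.19), neither called under TMM nor with DESeq2. PU.1 (275 and 257 against 228 and 230.3) and NCoR (132 and 108 against 76.5 and 81.2) were higher by less than 2-fold there. At -5.0 kb (chr10:82828810-82829046), upstream of the distal start of NM_001042523, p65 was 88.8 and 87.6 with no tag in either Veh library, at least 65.1-fold higher. p300 there was 79.8 and 70.3 against 4.39 and 2.63 (4.38 ± 0.41, adjusted p = 1.7e-07), and both gains held in every setting. At +4.4 kb from that start, in intron 1, p300 was 34.8 and 31.3 against 3.76 and 4.6 (2.97 ± 0.49), in every setting, and HDAC3 25.8 and 36.9 against 0.727 and 12.2 (2.14 ± 0.65), lost with DESeq2 and without Veh replicate 1 (1.32 to 5.21).

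Prdx1 (chr4:116685544-116700822, plus strand), a peroxiredoxin that reduces hydrogen peroxide, gained p300 at 4 of 6 regions, beside 42.1% of all p300 regions. All 4 gains held in every setting and lay upstream of the promoter. At -2.4 kb (chr4:116683035-116683407) p300 was 323 and 277 against 110.3 and 85.4 (1.61 ± 0.17, adjusted p = 6.4e-07) and p65 266 and 294 against 38.5 and 60.6 (2.5 ± 0.25, adjusted p = 1.4e-05). At -6.2 kb p300 was 83.9 and 71.3 against 15 and 15.8 and at -7.6 kb 94.1 and 81.6 against 17.6 and 16.4. Of 4 p65 gains, the one at -2.4 kb was also called under TMM and the other 3 were not. The promoter at -0.1 kb, which holds the ARE and AP-1 overlap shown above, was not called for any factor, with p65 at 40.1 and 30.1 against 53.4 and 66.2, p300 at 57.8 and 37.8 against 70.2 and 78.9 and NCoR at 50.2 and 44.3 against 57.4 and 57.7.

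Srxn1 (chr2:152105516-152111376, plus strand), which encodes sulfiredoxin, the enzyme that repairs overoxidised peroxiredoxins, was not called in any factor comparison after KLA. Its promoter held p300 at 77.8 and 63.8 against 38.2 and 36.8 (0.91 ± 0.26, adjusted p = 0.0055) and HDAC3 at 46.9 and 31.6 against 86.6 and 69.7 (-0.94 ± 0.40, adjusted p = 0.046), both past the p-value limit and under 2-fold. p65 was 32.7 and 26.7 against 19.3 and 43.8, with the KLA libraries inside the range of the Veh libraries, and no PU.1 or ERK1 region lay in this locus in the KLA experiments. Nqo1 (chr8:107388225-107403206, minus strand), the quinone reductase often used as the readout of NRF2 activity, had a region in the p65 table alone among the factors. p65 at its promoter was low, 7.35 and 7.53 against 14.9 and 21.4 (-1.27 ± 0.54, adjusted p = 0.058), and not called.

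Sod2 (chr17:13006846-13040063, plus strand) had the widest gain. At +2.3 kb in intron 2 (chr17:13009556-13010556) p65 was 649.8 and 715 against 54.3 and 69 (3.47 ± 0.21, adjusted p = 8.1e-07) and p300 636 and 649 against 77.7 and 69.7 (3.12 ± 0.14, adjusted p = 1.3e-10). NCoR was 316 and 341 against 76.5 and 100.0 (1.89 ± 0.21) and PU.1 169 and 186 against 49.6 and 59.1 (1.71 ± 0.13). PU.1 rose at 3 member regions in all, and this was one of them. PGC1β was 193 and 96.1 against 33.5 and 31.6 (2.13 ± 0.33) and ERK1 200.4 and 191 against 48.8 and 45.1 (2.06 ± 0.31), and these 6 gains held in every setting. HDAC3 was 292 and 307 against 81.5 and 96.2 (1.75 ± 0.37) and Fosl2 466 and 734 against 59.2 and 37.7 (3.63 ± 0.74). Without either Veh library HDAC3 and Fosl2 were not called (1.51 to 1.88 and 3.27 to 3.99), and Fosl2 not with the replicate block. In all 8 factors the KLA libraries lay above the Veh libraries. At the promoter p300 was 96.2 and 105 against 28.8 and 32.9 in 1 of its 2 regions, a gain called in every setting. The other p300 region also rose (3.5 ± 0.65, adjusted p = 0.00023), and was not called with DESeq2. p65 at the promoter was 151 and 177 against 52.5 and 72.7 (1.39 ± 0.26, adjusted p = 0.00075), neither called under TMM nor with DESeq2.

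Promoter regions, those within 2 kb of a TSS, can be set beside the distal sites. For p65, gains at promoters were those of Slc7a11, Txnrd1 and Sod2. The other promoters with a p65 region, Gclm (61.4 and 86.9 against 72.7 and 78.3), Gclc, Srxn1, Prdx1, Nqo1 and Nfe2l2 (at +1.1 kb 78.1 and 60.2 against 28.9 and 49.4), were not called. For NCoR and HDAC3 no region within 2 kb of a member's TSS was called in either direction. NCoR had negative log2 fold changes at the promoters of Gclm (-0.43), Srxn1 (-0.48), Prdx1 (-0.29) and Nfe2l2 (-0.85) and positive ones at those of Slc7a11 (0.96), Sod2 (0.75) and Txnrd1 (0.6 at +0.4 kb), and HDAC3 was at -0.24 for Nfe2l2 and 0.61 for Slc7a11.

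The next question was how H3K27ac at these loci responded to KLA and how its level after KLA differed with RGFP966. No group received RGFP966 without KLA, so an effect of the inhibitor on the resting level and a changed KLA response cannot be told apart. Of 41 member regions of 1000 bp, 35 passed the minimum of 16 tags. With DMSO KLA against DMSO Veh, 2 rose and 10 fell, against 6.73% higher and 28.1% lower among all regions. With RGFP966 KLA against DMSO KLA, 13 rose and 1 fell, against 26.9% and 9.53%. Under TMM the members split into 3 higher and 4 lower in the first comparison and 7 higher and 8 lower in the second, so the excess of one direction among the members was not seen there. Both comparisons use the same DMSO KLA libraries, so a value of those libraries enters them with opposite signs. TMM shifted the median of all regions by 0.42 in the first and -0.34 in the second, and moved the share of higher calls from 19.3 to 42.0% and from 73.9 to 45.9%. RGFP966 libraries also had lower summed H3K27ac at the 6 macrophage promoters, 1797 to 1997 tags per 10 M against 2117 to 2703 in DMSO KLA, and the part of this in the result was not tested.

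Both H3K27ac gains were at Sod2. At +2.3 kb, DMSO KLA libraries held 555 and 466, RGFP966 KLA libraries 217 and 171 and DMSO Veh libraries 35.7 and 22.7. The KLA gain was 4.12 ± 0.25, adjusted p = 1.4e-57 and the difference with RGFP966 -1.39 ± 0.20, adjusted p = 6.4e-11, both in every setting, and the 3 groups did not overlap. The promoter followed with 389.8 and 315 against 68.9 and 84.6 (2.2 ± 0.22, adjusted p = 9.5e-22), in every setting, and with RGFP966 held 251 and 185 (-0.69 ± 0.20, adjusted p = 0.0012), under the 2-fold limit.

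Of the 10 losses after DMSO KLA, 7 lay at distal Slc7a11 sites. Over the 12 tested Slc7a11 regions the median log2 fold change was -1.26. The other KLA experiments, described below, differed at this gene. In WT of the NCoR floxed experiment 1 of 7 tested Slc7a11 regions rose and 0 fell (median 0.84). In Pgc1b flox 3 of 12 rose and 2 fell (median -0.83). In the DMSO experiment H3K27ac at -293.8 kb was 36.9 and 31.1 against 127 and 168 (-2.1 ± 0.26, adjusted p = 3.9e-15) and with RGFP966 142 and 117 (1.92 ± 0.26, adjusted p = 2.7e-12). At -251.1 kb it was 14.2 and 21.9 against 73.9 and 80.2 (-2.11 ± 0.30, adjusted p = 1.8e-11) and with RGFP966 90.2 and 69.1 (2.16 ± 0.29, adjusted p = 7.9e-12). These calls held in every setting, and at both sites the RGFP966 KLA libraries lay near the DMSO Veh libraries. The -164.3 kb loss, 139 and 114 against 376 and 386 (-1.59 ± 0.21), also held in every setting. The RGFP966 gains at -184.9 kb (120.5 and 106 against 51.2 and 48.8) and -172.0 kb (222 and 183 against 103 and 74.9) were of log2 size 1.18 and 1.18, and were called neither under TMM nor by DESeq2, and the second not without DMSO KLA replicate 2. At Gclc -17 kb, where NCoR had fallen, H3K27ac was 22 and 11.8 against 52.3 and 33.1 and with RGFP966 73.1 and 67.1. The RGFP966 difference there held in every setting (2.01 ± 0.30, adjusted p = 6.4e-10), whereas the KLA loss (-1.3 ± 0.32) was called neither under TMM nor with DESeq2.

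Inside Nfe2l2 the +8.1 kb site in intron 1 was 52.5 and 37 against 111 and 76.8 (-1.06 ± 0.26), a loss called neither under TMM nor with DESeq2, and with RGFP966 151 and 112 (1.54 ± 0.25, adjusted p = 6.3e-09), in every setting. At +19.0 kb, also intron 1, RGFP966 libraries held 113 and 108 against 50.5 and 40.4 (1.27 ± 0.25), neither called under TMM nor with DESeq2. At +6.4 kb RGFP966 libraries held 109 and 88.7 against 39.5 and 38.7 (1.33 ± 0.26), not called under TMM. At the promoters of Nfe2l2, Srxn1 and Txnrd1 no H3K27ac change was called. The Nfe2l2 region at +1.1 kb was 514 and 415 against 450.2 and 495 with DMSO and 252 and 226 with RGFP966 (-0.96 ± 0.19, adjusted p = 3.9e-06), under 2-fold. The Srxn1 promoter was 387 and 325 against 359 and 369 and with RGFP966 269.9 and 190.4. That of Txnrd1 was 466 and 393 against 306 and 264 and 299 and 233 at -0.3 kb. H3K27ac at the Nqo1 promoter was near the filter in every library, 11 and 9.26 against 8.31 and 13.1, and 11.2 and 12.9 with RGFP966.

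**Figure D5:**
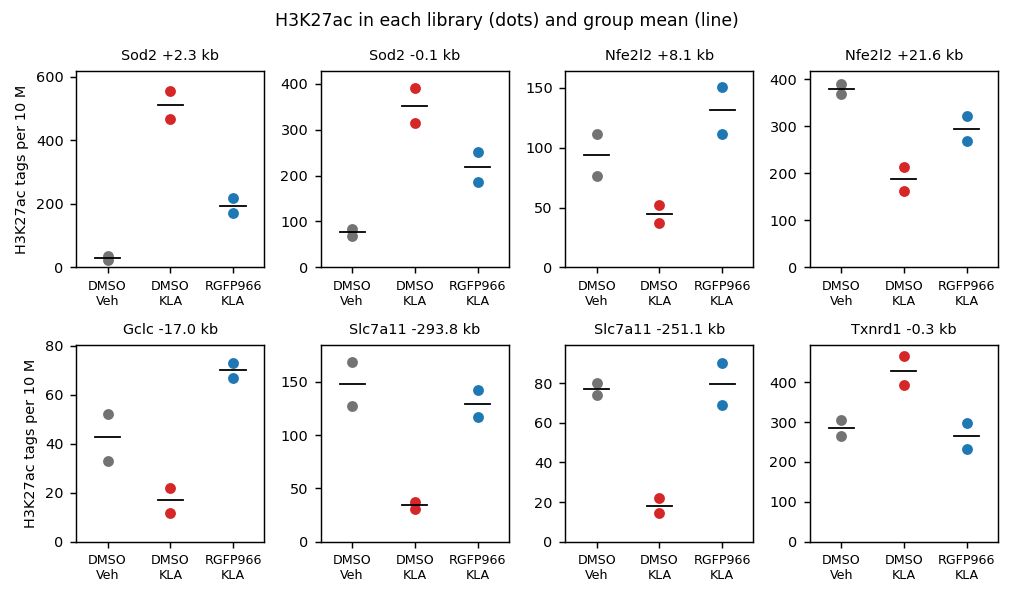
H3K27ac in tags per 10 M (y axis) in each library after DMSO Veh, DMSO KLA or RGFP966 KLA at 8 regions of Sod2, Nfe2l2, Gclc, Slc7a11 and Txnrd1, with a line at each group mean. At Sod2 +2.3 kb the order was DMSO KLA, RGFP966 KLA, DMSO Veh, and at Slc7a11 -293.8 and -251.1 kb the DMSO KLA libraries were the lowest.

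In the experiment with NCoR floxed cells, 26 of 32 member regions could be tested, and almost none was called. After KLA 1 rose and none fell in WT (6.49% higher and 3.72% lower among all regions; in edgeR an unadjusted p under 0.05 was reached by 8 higher and 3 lower regions, with 1 call each in DESeq2 and under TMM). In NKO 1 rose and 1 fell (2.75% and 7.96%). Sod2 had 1 tested region in this experiment, which was not called after KLA (log2 fold change 0.62 in WT and 0.55 in NKO). The WT gain was Slc7a11 +41 kb, 22.6 and 41.4 against 8.83 and 12.2 (1.58 ± 0.42, adjusted p = 0.0061), not called without Veh replicate 1 or KLA replicate 2 (1.09 to 1.95). In NKO the Nfe2l2 region at +21.6 kb was 41.9 and 37.5 against 88.5 and 98.1 (-1.23 ± 0.24, adjusted p = 0.00031), in every setting, and in WT 37.7 and 50.3 against 59.3 and 83 (-0.7 ± 0.25, adjusted p = 0.044). The NKO gain at Slc7a11 +4.6 kb, 19.1 and 20.8 against 6.64 and 6.38, was lost without any one of its libraries, which left 1 call.

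Between NKO and WT no member region was called, after Veh (1.00% of all regions called in either direction), after KLA (0.789%) or for the difference of the KLA responses (0.697%). In edgeR 4, 5 and 2 member regions had an unadjusted p under 0.05, and DESeq2 and TMM made no call. Each library of this table held 5.55 to 7.18% of its tags in regions.

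The Pgc1b experiment was counted in 1000 bp windows, unlike that with NCoR floxed cells. After KLA 5 regions rose and 7 fell of 35 in flox (5.22% and 25.6% of all), and 2 rose and 12 fell in flox Cre (4.18% and 32.5% of all). Under TMM the share of higher calls over all regions went from 16.9 to 41.7% in flox and from 11.4 to 43.0% in flox Cre, and the members split into 6 higher and 3 lower in each. Sod2 +2.3 kb was 355 and 302 against 15.1 and 26.3 in flox (4.02 ± 0.18, adjusted p = 2.9e-95) and 213 and 218 against 13.7 and 23.9 in flox Cre (3.53 ± 0.19, adjusted p = 6.4e-67). The Sod2 promoter was 324 and 330.0 against 118 and 116 in flox (1.48 ± 0.12, adjusted p = 2.9e-31) and 228 and 208 against 118 and 100.2 in flox Cre (0.99 ± 0.13), the latter under 2-fold. In flox, Slc7a11 intron 6 rose at +36.7 kb (269 and 278 against 117 and 134) and +37.5 kb (254 and 275 against 95.4 and 123), in every setting.

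Slc7a11 -293.8 kb was 27.6 and 24.2 against 90.3 and 83.8 in flox (-1.75 ± 0.23) and 31.1 and 33.2 against 95.4 and 113 in flox Cre (-1.69 ± 0.23), both in every setting. Gclc -17 kb was 27.6 and 32.9 against 106 and 83.8 in flox (-1.66 ± 0.23), in every setting, and 31.8 and 29.3 against 79.8 and 69 in flox Cre (-1.29 ± 0.24), not called under TMM or DESeq2. Nfe2l2 +21.6 kb was 137 and 160.0 against 296 and 318 in flox (-1.05 ± 0.11), not called under TMM or DESeq2, and 92.5 and 93.8 against 332 and 279 in flox Cre (-1.71 ± 0.13), in every setting.

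Flox Cre against flox gave no call after Veh (0.397% of all regions in either direction; 10 member regions with an unadjusted p under 0.05 in edgeR, and no call in DESeq2 or under TMM, with 1 call without flox Cre Veh replicate 2). After KLA 1 region was higher and none lower (0.702% and 6.81% of all; 1 higher and 12 lower at an unadjusted p under 0.05). It was Slc7a11 -251.1 kb, 25.3 and 22.1 against 12.2 and 8.68 (1.17 ± 0.38, adjusted p = 0.0066), not called without flox KLA replicate 2 (0.95 to 1.57). The difference of the KLA responses was called at no member region (5.37% of all in either direction; 6 with an unadjusted p under 0.05 in edgeR, and none in DESeq2 or under TMM). The flox Cre KLA libraries held 22 to 22.4% of their tags in regions against 29.9 to 30.1% in flox KLA, and 1249 to 1277 against 2302 to 2399 tags per 10 M over the 6 macrophage promoters. Their part in these differences was not tested.

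PGC1β was measured again beside the ERK inhibitor. In this experiment PGC1β was higher after DMSO KLA than after DMSO Veh in 18 of 67 regions and lower in 1 (16.4% and 1.23% of all regions; under TMM the share of higher calls went from 93.0 to 75.1%). Without DMSO Veh replicate 1, 12 regions were called. The Slc7a11 promoter at -0.7 kb was 53.3 and 72.9 against 5.68 and 4.37 (3.58 ± 0.70, adjusted p = 0.00075) and the Sod2 promoter 39.5 and 46.1 against 7.31 and 0 (3.27 ± 0.81, adjusted p = 0.006), both in every setting. Nfe2l2 was 80.9 and 125 against 8.93 and 1.46 at -16.2 kb (4.08 ± 0.55, adjusted p = 1.2e-05) and 113 and 161 against 38.2 and 23.3 at -26.6 kb (2.11 ± 0.39), in every setting. ERKi KLA against DMSO KLA called none of the 67 (0.286% of all in either direction). At an unadjusted p under 0.05 edgeR gave 3 higher and 3 lower regions, and neither DESeq2 nor TMM made a call. The Slc7a11 promoter was 18.8 and 25.9 against 53.3 and 72.9 with the inhibitor (-1.49 ± 0.61, adjusted p = 0.27).

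NCoR with ERKi KLA was set against NCoR with KLA alone. It fell in 29 of 71 regions and rose in 1, beside 48.6% lower and 0.634% higher among all regions. The ERKi libraries carry another date than the KLA libraries, whose titles name no DMSO. The ERKi libraries held 15 to 15.8% of their tags in regions against 33.3 to 34.2% in the KLA libraries. The inhibitor, its solvent and the date cannot be told apart. TMM shifted the median of all regions by 1.16 and the share of higher calls from 1.29 to 50.5%. Under TMM the members split into 5 higher and 3 lower. Of the 29 losses, 3 were also called under TMM, 5 with DESeq2 and 27 with the replicate block, and without either NCoR KLA library 18 regions were called in all. At the Gclm promoter NCoR was 94.7 and 108 against 277 and 261 (-1.41 ± 0.18, adjusted p = 0.00014) and at Gclc -3.8 kb 41.4 and 49.1 against 99.6 and 111 (-1.22 ± 0.27), neither called under TMM or DESeq2, and none of the 6 losses at Nfe2l2 was. The losses at Slc7a11 -174.8 kb, 6.76 and 15.5 against 72.1 and 92 (-2.87 ± 0.49, adjusted p = 0.00056), and Gclm -7.6 kb, 16.1 and 5.17 against 78.6 and 82.3 (-2.9 ± 0.51, adjusted p = 0.00063), held in every setting. The KLA libraries are those of the KLA comparison above, where the same sites were higher. The gain at Gclc +66.5 kb, 7.61 and 8.62 against 3.24 and 0.692, was lost without any one library.

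Of 6 osteoclast genes, Acp5, Ctsk, Mmp9 and Ocstamp had a p300 promoter region, and Calcr and Dcstamp had none. Summed over these 4, p300 went from 132 to 135 tags per 10 M at Day0 to 650.0 to 723 at Day4. Over the 5 of 6 macrophage genes with such a region it went from 233 to 343 to 401 to 461. With library totals the median log2 fold change of all p300 regions was 1.84, and its part in these sums was not tested. At the antioxidant loci p300 was higher at Day4 than at Day0 in 17 of 38 member regions and lower in none, beside 62.2% higher and 0.248% lower among all regions. The Day4 libraries held 9.53 to 9.61% of their tags in regions against 3.08 to 3.16%, and TMM shifted the median of all regions by -1.61 and the share of higher calls from 99.6 to 69.7%. None of the 17 calls was made under TMM or with DESeq2, although 3 other member regions were called lower under TMM, and without Day4 replicate 1 or 2 the number of calls was 7 or 3. Slc7a11 -164.3 kb was 179.9 and 161 against 31.6 and 25.5 (2.54 ± 0.35, adjusted p = 0.00026) and Nfe2l2 -58.8 kb 189 and 225 against 62.4 and 72.4 (1.63 ± 0.32). Both Day4 libraries lay above both Day0 libraries at each. ERK1 was higher in 1 of 33 regions and lower in none (2.33% and 0.0267% of all; 10 higher and 1 lower at an unadjusted p under 0.05 in edgeR, and no call in DESeq2 or under TMM). It was Slc7a11 -289.9 kb, 43.6 and 26.3 against 3.44 and 5.25 (2.97 ± 0.77, adjusted p = 0.047), not called without either Day4 library, while 3 or 2 regions were called without Day0 replicate 1 or 2. One of the ERK1 Day4 libraries is titled replicate 2 and described as replicate 3 with another date. Its column name lacks the NCoRWT that the other ERK1 libraries of this comparison carry.

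A wider list of 51 genes of the NRF2 program, other antioxidant enzymes and oxidant sources was counted in the same way, without the 10 genes. p65 rose in 132 and fell in 19 of 255 regions (51.8% higher, beside 57.0% of all p65 regions), and p300 rose in 119 and fell in 37 of 314 (37.9% beside 42.1%). NCoR rose in 47 and fell in 58 of 255 (18.4% higher and 22.7% lower, beside 23.4% and 16.7%). PU.1 rose in 8 and fell in 46 of 236 (19.5% lower, beside 21.7%). H3K27ac rose in 14 and fell in 35 of 115 regions after DMSO KLA (30.4% lower, beside 28.1%), and with RGFP966 rose in 28 and fell in 8 (24.3% higher, beside 26.9%). Named by the lowest p-value per comparison, Gsr +2.2 kb, at the glutathione reductase gene, had p300 of 213 and 255 after KLA against 12.5 and 7.23 after Veh (log2 fold change 4.55, SE 0.26, adjusted p = 7.3e-10). Fth1 -2.7 kb, at the ferritin heavy chain, had NCoR of 173 and 171 against 14.3 and 17.7 (3.41 ± 0.29). Osgin1 -13.2 kb had NCoR of 35.6 and 16.6 against 284 and 359, a loss of NCoR. Sod1 -21.7 kb, at the cytosolic superoxide dismutase, had PU.1 of 56.3 and 51 against 250.3 and 251. Cybb -4.2 kb, at the oxidase subunit gp91phox, had p65 of 289 and 296 against 10.5 and 7.46.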

How the data were processed

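ChIP-seq of H3K27ac and 8 factors was analysed in 70 libraries in 35 groups of 2 (74 count columns in 15 tables, because the NCoR Veh and KLA libraries stand in 2 tables), and the 30 input samples were not analysed here. Raw tag counts per region were deposited by the authors. By the labels and the methods of the study, reads were aligned to mm10 with Bowtie2, peaks were called with HOMER, filtered by the irreproducible discovery rate and merged over conditions, and tags were left unnormalized, at most 3 being counted at a position. Versions are not given in the sources used here. Factor chromatin was fixed with disuccinimidyl glutarate and formaldehyde and H3K27ac chromatin with formaldehyde alone. H3K27ac was counted over open chromatin, in windows of 1000 bp in the DMSO/RGFP966 and Pgc1b tables.

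Of 606513 regions, 97.0% had a listed TSS distance within 50 bp of that recomputed from RefSeq GRCm38.p6. Columns without a sample of this series numbered 0. Counts were divided by the library total of the column header (4.30 to 21.5 M). Each table was fitted whole with the two-sided quasi-likelihood test of edgeR 4.0.16 (R 4.3.3), in 25 comparisons, for regions with at least 4 tags (factors) or 16 tags (H3K27ac) in at least 1 library. Calls needed a Benjamini-Hochberg adjusted p under 0.05 and over 2-fold change, and SE was the log2 fold change over the square root of F. Where a group held 0 tags, folds are bounds at 3 tags over the group, and with 1 to 3 tags they are ratios with exact 95% intervals, which cover counting error only. The fit was tested on simulated counts.

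The members and lists were chosen with earlier results of these data known. Named regions were drawn from each member's promoter regions and, for each comparison and direction, its call of lowest p-value. Other sources were sites called in 1 direction in at least 4 of 8 factors, and calls in genotype, RGFP966 or ERKi contrasts. Not every such region is named, and most of the NCoR losses with ERKi are left out. From the 51 gene list, regions were drawn from the calls of lowest p-value. Alternatives were TMM, DESeq2 1.42.0, no filter, no fold minimum, regions within 50 kb, a replicate block and leaving out each library. Deviations of same-numbered libraries from their group means correlated between -0.027 and 0.026, so the samples were treated as unpaired. Python 3.11.15 with pandas 2.3.3, scipy 1.17.1 and matplotlib 3.10.9 was used for joins, motif searches and figures.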

Additional observations from a re-analysis of the deposited data

Results flagged for a closer look

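In the Pgc1b experiment 3 regions differed between the genotypes in their H3K27ac response to KLA, by the interaction term of edgeR with an adjusted p under 0.05, each by less than 2-fold. At Nfe2l2 +21.6 kb, in intron 1, the log2 difference between the responses was -0.67 ± 0.17 (SE, adjusted p = 0.0013). H3K27ac there was 92.5 and 93.8 against 332 and 279 tags per 10 M in flox Cre (KLA against Veh) and 137 and 160.0 against 296 and 318 in flox, so the level was lower after KLA in both genotypes and the lowest in flox Cre after KLA. At the Sod2 promoter (-0.1 kb) the difference was -0.49 ± 0.18 (adjusted p = 0.04), with 228 and 208 against 118 and 100.2 in flox Cre and 324 and 330.0 against 118 and 116 in flox, higher after KLA in both. At Nfe2l2 +1.1 kb it was -0.39 ± 0.10 (adjusted p = 0.0018), with 404 and 384 against 513 and 514 in flox Cre and 622 and 578 against 599 and 593 in flox. All 3 differences were negative. TMM shifted the median interaction over all regions by 0.19, and the flox Cre KLA libraries held 22 to 22.4% of their tags in regions against 29.9 to 30.1% in flox KLA. The part of this in the differences was not tested.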

How the results depend on the processing

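Of 320 member calls, 126 held in every setting, 200 under TMM, 195 with DESeq2 and 290 with the replicate block, and 12 changed direction under TMM (5 p65 gains at Nfe2l2 and Slc7a11, 5 NCoR losses with ERKi and 2 p300 gains at Day4). Among those chosen by the naming rule, direction turned under TMM for p300 at Day4 at Gclc +74.2 kb (-0.10) and Gclm -2.0 kb (-0.13), and for NCoR with ERKi at Nfe2l2 -28.7 kb (0.039, DESeq2 0.053) and Txnrd1 -0.3 kb (0.041, DESeq2 0.054). These follow from the shift of the median of all regions that each scaling makes. Same-numbered libraries did not deviate together, and the replicate block changed the number of member calls to 2 for ERK1 Day4, 3 for ERK1 KLA, 3 for Fosl2 and 1 for H3K27ac in NKO. With DESeq2 the counts became 0 for ERK1 Day4, 0 for p300 Day4, 17 for Fosl2, 9 for H3K27ac in flox Cre and 11 for NCoR with ERKi. With TMM they became 0 for ERK1 Day4, 3 for p300 Day4, 16 for Fosl2, 7 for H3K27ac with DMSO KLA, 9 for H3K27ac in flox Cre and 8 for NCoR with ERKi. Without the filter the H3K27ac count in NKO was 1.

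Without the 2-fold minimum the counts became 29 for NCoR, 45 for PU.1, 19 for H3K27ac with DMSO KLA, 29 for RGFP966, 5 for WT, 5 for NKO, 25 for flox, 25 for flox Cre, 5 and 13 for flox Cre against flox after Veh and KLA, and 3 for the Pgc1b interaction. Within 50 kb of the TSS they were 35 for p65, 12 for HDAC3, 11 for NCoR, 6 for PU.1, 5 for Fosl2, 0 for ERK1 Day4, 10 for p300 Day4, 19 for NCoR with ERKi, 5 for DMSO KLA, 6 for RGFP966, 7 for flox, 7 for flox Cre and 0 for flox Cre against flox after KLA.

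Leaving out 1 library at a time gave 0 to 3 for ERK1 Day4 vs Day0, 2 to 6 for ERK1 KLA vs Veh, 0 to 19 for Fosl2 KLA vs Veh, 1 to 1 for H3K27ac NKO KLA vs Veh, 0 to 1 for H3K27ac Pgc1b flox Cre vs flox, KLA, 0 to 1 for H3K27ac Pgc1b flox Cre vs flox, Veh, 0 to 2 for H3K27ac WT KLA vs Veh. It gave 5 to 25 for HDAC3 KLA vs Veh, 18 to 28 for NCoR ERKi KLA vs KLA, 12 to 23 for NCoR KLA vs Veh, 12 to 17 for PGC1b DMSO KLA vs DMSO Veh, 6 to 16 for PGC1b KLA vs Veh, 3 to 25 for p300 Day4 vs Day0, 29 to 64 for p65 KLA vs Veh. With 1 library left in a group, that library is assumed to vary like the others of its table, and the 2 libraries a group limit all of these tests.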
